A study of Mus musculus with 18 samples.

Results

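Accessible chromatin was mapped at 10 genes of the effector and cytotoxic programme of T cells, out of 26755 genes named in the authors' table of accessible regions. The genes were Prdm1, Runx3, Zeb2 and Eomes, which encode transcription factors; Gzmb, Prf1 and Fasl, which encode killing proteins; and Ccl5, Cx3cr1 and Klrg1, which encode a chemokine and a pair of surface receptors. They were chosen by name, and their regions are all those that the table lists as overlapping one of them or lying within 5000 bp of it. These were 67 of 65983 regions, holding 399 of 409588 windows, the short sliding stretches of genome that were joined into regions.

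The regions came from ATAC-seq, which uses a transposase to insert adapters into open chromatin, of mouse CD4 T cells that were started as naive cells on anti-CD3 and anti-CD28 beads with IL2, IL12 and an antibody to IL4. The 18 samples were Id3-KO Th1 cells at 24 h, Id3-KO Tcmp cells at 72 h, Id3-KO Teff cells at 72 h, WT Th1 cells at 24 h, WT Tcmp cells at 72 h and WT Teff cells at 72 h, with 3 samples each. Tcmp and Teff are the submitters' labels and are not spelled out in them. The sources used here do not give the construction of the Id3 allele, the strain, the age of the mice, or whether replicates were separate animals or cultures. Id3 is an inhibitor of E proteins, transcription factors that bind E-boxes.

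The table lists the same 67 regions under each of its 6 contrasts between genotypes or cell labels and has no column for single samples, so the depth of the libraries is unknown. A listed region was therefore not assigned to a genotype, a time or a cell label, and regions open in all or in few of the cells cannot be told apart. In all 6 contrasts the p-value divided by the number of windows, where the p-value was below 1, never fell from one row to the next (0 falls), and the representative window was the first of its region in 65983 of 65983 regions. The deposited p-values and the representative windows, whose fold changes are the ones listed, thus follow the order of the rows. For the members the rows run from row 3377 for Fasl on chromosome 1 to row 64260 for Cx3cr1 on chromosome 9. No p-value or fold change is given here as a change of a gene. What can be measured is how many regions each gene has, where they lie, and how wide they are.

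In CD8 T cells and natural killer cells, and in CD4 T cells that take on cytotoxic functions, killing proceeds by release of perforin and granzymes from granules or through Fas ligand on the surface. The transcription factors Blimp-1 (from Prdm1), RUNX3, EOMES and ZEB2 act in the differentiation of such effector cells. CX3CR1 and KLRG1 are surface markers of highly differentiated effector cells, and CCL5 is a chemokine of activated and memory T cells.

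Promoter sequences are shown for 7 members with a region classed as promoter, which 9 of the 10 members had. Those of Zeb2 are not printed. Whether a region covers the printed bases was not checked. To which of the Prdm1 promoter regions the printed Prdm1 sequence belongs was not determined. The printed sequences run from 250 bases before to 50 bases after the start of transcription, 5′ to 3′ on the strand of the gene. Capitals mark E-boxes of the form CAGCTG or CAGGTG, RUNX letters TGTGGT and AP-1 letters TGANTCA, each on either strand. The sequences and their coordinates are those of RefSeq on GRCm38.p6, an older build than the GRCm39 of the regions, so the coordinates of the sequences and the regions are not comparable.

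Gzmb, GRCm38.p6 chr14:56262285-56262584, minus strand: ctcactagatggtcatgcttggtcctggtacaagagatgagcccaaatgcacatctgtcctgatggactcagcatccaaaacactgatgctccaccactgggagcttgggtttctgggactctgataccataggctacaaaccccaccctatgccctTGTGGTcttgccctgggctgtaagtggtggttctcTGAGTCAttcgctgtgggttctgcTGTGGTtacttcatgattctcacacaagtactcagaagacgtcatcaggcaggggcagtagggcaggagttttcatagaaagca
Prf1, GRCm38.p6 chr10:61297586-61297885, plus strand: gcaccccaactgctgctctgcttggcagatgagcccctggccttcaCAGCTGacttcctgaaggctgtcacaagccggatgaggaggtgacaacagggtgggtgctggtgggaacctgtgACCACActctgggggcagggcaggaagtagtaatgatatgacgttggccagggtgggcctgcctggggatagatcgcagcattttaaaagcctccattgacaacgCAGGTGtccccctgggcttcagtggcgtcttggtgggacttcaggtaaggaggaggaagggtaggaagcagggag
Fasl, GRCm38.p6 chr1:161788446-161788745, minus strand: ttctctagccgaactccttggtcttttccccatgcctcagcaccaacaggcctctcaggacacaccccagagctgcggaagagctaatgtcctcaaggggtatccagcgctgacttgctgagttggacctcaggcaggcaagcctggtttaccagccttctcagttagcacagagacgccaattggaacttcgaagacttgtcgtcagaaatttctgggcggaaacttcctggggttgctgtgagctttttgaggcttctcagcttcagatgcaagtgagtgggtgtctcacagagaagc
Eomes, GRCm38.p6 chr9:118477939-118478238, plus strand: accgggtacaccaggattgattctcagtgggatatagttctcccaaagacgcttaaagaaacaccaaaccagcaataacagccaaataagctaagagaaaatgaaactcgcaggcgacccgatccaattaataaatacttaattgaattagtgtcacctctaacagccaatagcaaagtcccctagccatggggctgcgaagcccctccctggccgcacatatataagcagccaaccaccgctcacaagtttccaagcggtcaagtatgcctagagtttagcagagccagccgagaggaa
Runx3 distal, GRCm38.p6 chr4:135120395-135120694, plus strand: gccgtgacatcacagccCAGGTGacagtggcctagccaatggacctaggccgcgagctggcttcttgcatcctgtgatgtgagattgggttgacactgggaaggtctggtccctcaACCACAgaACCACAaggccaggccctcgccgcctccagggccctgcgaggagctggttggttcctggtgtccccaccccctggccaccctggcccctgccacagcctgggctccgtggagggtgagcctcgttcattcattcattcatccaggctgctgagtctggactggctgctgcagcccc
Runx3 proximal, GRCm38.p6 chr4:135152295-135152594, plus strand: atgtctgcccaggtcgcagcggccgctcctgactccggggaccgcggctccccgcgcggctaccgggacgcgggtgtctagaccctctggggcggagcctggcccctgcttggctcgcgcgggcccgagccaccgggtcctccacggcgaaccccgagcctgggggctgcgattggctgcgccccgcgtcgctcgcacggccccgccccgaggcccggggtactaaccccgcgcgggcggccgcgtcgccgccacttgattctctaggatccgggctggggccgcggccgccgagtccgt
Prdm1, GRCm38.p6 chr10:44458699-44458998, minus strand: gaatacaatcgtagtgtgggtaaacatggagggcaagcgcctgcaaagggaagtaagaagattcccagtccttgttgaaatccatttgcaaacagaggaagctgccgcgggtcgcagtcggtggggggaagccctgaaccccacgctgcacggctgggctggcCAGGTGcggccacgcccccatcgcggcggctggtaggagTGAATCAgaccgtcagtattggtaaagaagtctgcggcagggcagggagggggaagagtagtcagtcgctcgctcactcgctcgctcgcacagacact
Cx3cr1, GRCm38.p6 chr9:120068247-120068546, minus strand: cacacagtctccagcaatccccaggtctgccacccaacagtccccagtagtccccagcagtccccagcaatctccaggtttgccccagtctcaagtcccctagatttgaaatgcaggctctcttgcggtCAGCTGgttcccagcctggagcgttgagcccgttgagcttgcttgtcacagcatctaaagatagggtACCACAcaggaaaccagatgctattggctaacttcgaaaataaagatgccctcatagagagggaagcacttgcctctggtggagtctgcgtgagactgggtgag

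RefSeq gave 12 promoter sequences for 8 of the 10 genes, 4 of them for Zeb2. Ccl5 and Klrg1 were not matched. An E-box of the form CAGCTG or CAGGTG stood in 4 of the 12 sequences (33.3%), those of Prf1, Prdm1, Cx3cr1 and distal Runx3, against 32.9% of all 32851 promoters of the same length. With any E-box (CANNTG, which takes in the first pair) the shares were 58.3% and 72.3%. None of the 4 Zeb2 sequences held an E-box of either form, so the shares over sequences lean on that gene. Counted by gene, 4 of the 8 genes had CAGCTG or CAGGTG and 6 of the 8 had CANNTG. No difference from other promoters is read from these counts.

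RUNX letters were in 4 of the 12 sequences (33.3%), against 16.8% of all promoters. The promoters of Gzmb and distal Runx3 held them at 2 places each. Prf1 and Cx3cr1 had 1 each. AP-1 letters were in 3 of the 12 (25.0%), in Gzmb, Prdm1 and 1 Zeb2 promoter, against 7.81% of all. The Ets letters GGAAGT were in 3 of the 12, against 23.8% of all. The T-box letters AGGTGTNA, which overlap the E-box letters where they follow a C, were in 0 of the 12, against 3.03% of all. The letters GAAAGTG, read by Blimp-1 and IRF factors, were also in 0 of the 12, against 4.81% of all. Both strands were searched. With 12 sequences, of which 2 from Zeb2 largely overlap, these shares are descriptions of the letters and not evidence of binding.

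The number of regions differed widely among the genes. Cx3cr1 had 23 regions, Prdm1 and Runx3 11 each, and Zeb2 9. Gzmb and Prf1 had 3 each, Eomes, Ccl5 and Fasl 2 each, and Klrg1 had 1. The median was 3 per member, against 2 over all genes named in the table, where the upper quartile was 3 and the 95th percentile 8. For Cx3cr1, 99.6% of all genes had fewer regions, for Prdm1 and Runx3 97.2%, and for Zeb2 95.7%. The rank of Cx3cr1 rests on regions that also name other genes, without which it had 7, and on introns of a long gene model that was not checked here. The corresponding share was 62.5% for Gzmb and Prf1, and 37.4% for Eomes, Ccl5 and Fasl. Of the 4 transcription factor genes, 3 thus lay above the 95th percentile of all genes, while Eomes and the genes of killing proteins had 2 or 3 regions, at or just above the median.

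**Figure D1:**
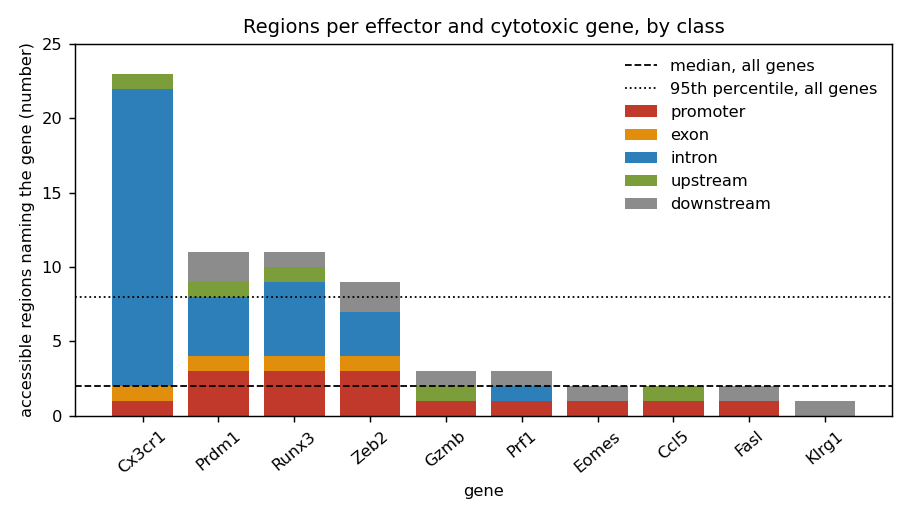
Number of accessible regions naming each gene (vertical axis), stacked by class; the dashed and dotted lines are the median (2) and the 95th percentile (8) of all 26755 genes. Cx3cr1 (23), Prdm1 (11), Runx3 (11) and Zeb2 (9) lie above the dotted line, and most of the Cx3cr1 bar is intronic.

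These counts take no account of the length of a gene. Both ends of a gene could be read from the listed distances where regions flank it on either side, which held for 3550 genes, among them 3 members. Prdm1 was 91.3 kb long by this reading, Runx3 57.3 kb and Gzmb 3.42 kb, against a median of 5.27 kb. Per 10 kb of gene, Prdm1 had 0.876 overlapping regions, Runx3 1.57 and Gzmb 2.92, against a median of 2.29 (quartiles 0.902 and 8.06). Per length, Prdm1 and Runx3 were thus below the median of these genes, and Gzmb, with 1 overlapping region, was slightly above it. However, Prdm1 was longer than 96.6% and Runx3 than 93.2% of these genes. A short gene with 1 region already has a high value per 10 kb, and upstream promoter regions were counted as overlapping. Whether regions are sparse at Prdm1 and Runx3 for genes of their length was not tested.

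Of the 67 regions, 15 lay at a promoter, which in this table reaches 3000 bp upstream of a gene, 33 lay in introns, 4 in exons away from a promoter, and 15 beside a gene without overlapping it. The promoter share was 22.4% (95% Wilson interval 14.1 to 33.7, for counting error only and as if regions of 1 gene were independent), against 37.0% of the 76685 pairs of a gene and a region in the whole table. When a region was counted as promoter for any gene that it overlaps, and not for the member alone, the share was 35.8%. This share has no counterpart here for the whole table and is not comparable with the 37.0%. Introns held 49.3% of the member regions and 34.2% of all pairs. Flanking regions made up 22.4% and 21.7%. Without Cx3cr1, promoters held 31.8% and introns 29.5% of the other 44 regions, so that the excess of introns rested on that gene. Flanking regions then made up 31.8%, above the 21.7% of all pairs. Of the members, 9 of 10 had a promoter region, against 75.9% of all genes named in the table. Klrg1 was the exception.

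Prdm1 encodes Blimp-1, a repressor that drives terminal differentiation of effector lymphocytes. It had 3 promoter regions on chromosome 10 (GRCm39). The region from 44405201 to 44405850 lay 704 bp upstream of the 5′ end of the gene, which the listed distances place at 44404497, and the region from 44402851 to 44403500 lay just inside the gene. The third, from 44334401 to 44335050, covered a promoter and an exon and lay 70.8 kb farther along the gene. Each of the 3 was 650 bp wide with 8 windows. The stretch between the promoter groups held 1 intronic region, with 7 windows, 46.2 kb from the most 5′ promoter region. The remaining 7 regions comprised 3 in introns and 1 in an exon 79.7 to 85.0 kb along the gene, 2 beyond its 3′ end at listed distances of 2023 and 4473 bp, and 1 upstream at 3854 bp. The farthest of them, 44308101 to 44308700, was the one at 4473 bp, 600 bp wide with 7 windows. The narrowest, in an intron, was 350 bp wide with 2 windows.

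Runx3 encodes a Runt-domain factor that promotes cytotoxic differentiation and silences Cd4 in the CD8 lineage, and it is known to be transcribed from a distal and a proximal promoter. Both groups were visible on chromosome 4. The distal region, 134847451 to 134848100, was 650 bp wide with 8 windows, covered the implied 5′ end of the gene at 134847963, and also covered the promoter and an exon of an antisense gene known only by an Ensembl ID. A pair of regions at the proximal promoter, 134877601 to 134878200 with 7 windows and 134879551 to 134880050 with 5 windows, lay 30.1 and 32.0 kb from it. The distal sequence printed above has 8 CpG dinucleotides and 63.7% G and C, and the proximal one has 45 and 77.3%, against medians of 7 and 52.7% over all promoters (upper quartiles 20 and 61.7%). The 2 regions of a single window, in an intron and an exon, were 300 bp wide. A 650 bp intronic region, 134886001 to 134886650, held 6 of the 8 windows that fit its width. The farthest region, 134906351 to 134906950, lay 1050 bp beyond the 3′ end and was 600 bp wide with 7 windows. With regions of at least 5 windows alone, Runx3 had 7 regions in place of 11.

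Zeb2 encodes a zinc-finger repressor of late effector cells. Its 3 promoter regions on chromosome 2 had 6 windows and 550 bp each. They lay at 45006951 to 45007500, at 45000001 to 45000550, and at 44945801 to 44946350, and the outermost pair was 61.2 kb apart. The middle one also covered the promoter of Zeb2os, an antisense transcript, and of 2 further genes with Ensembl IDs alone. Along the gene, 46600 bp without a region separated the first intronic region from the third promoter region. The other regions were 3 in introns, 1 in an exon and 2 beyond the 3′ end, of which the farther, 44868351 to 44868700 at 4944 bp, was 350 bp wide with 2 windows and the nearer, 44871551 to 44872200 at 1444 bp, was the widest of the gene at 650 bp with 8 windows. From the first to the last, the 9 regions took up 139 kb, the longest stretch of any member.

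Promoter regions more than 10 kb apart were thus present in Prdm1, Runx3 and Zeb2, 3 of the 10 members, against 8.41% of all named genes (2250 genes). No correction for gene length was made in this comparison.

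**Figure D2:**
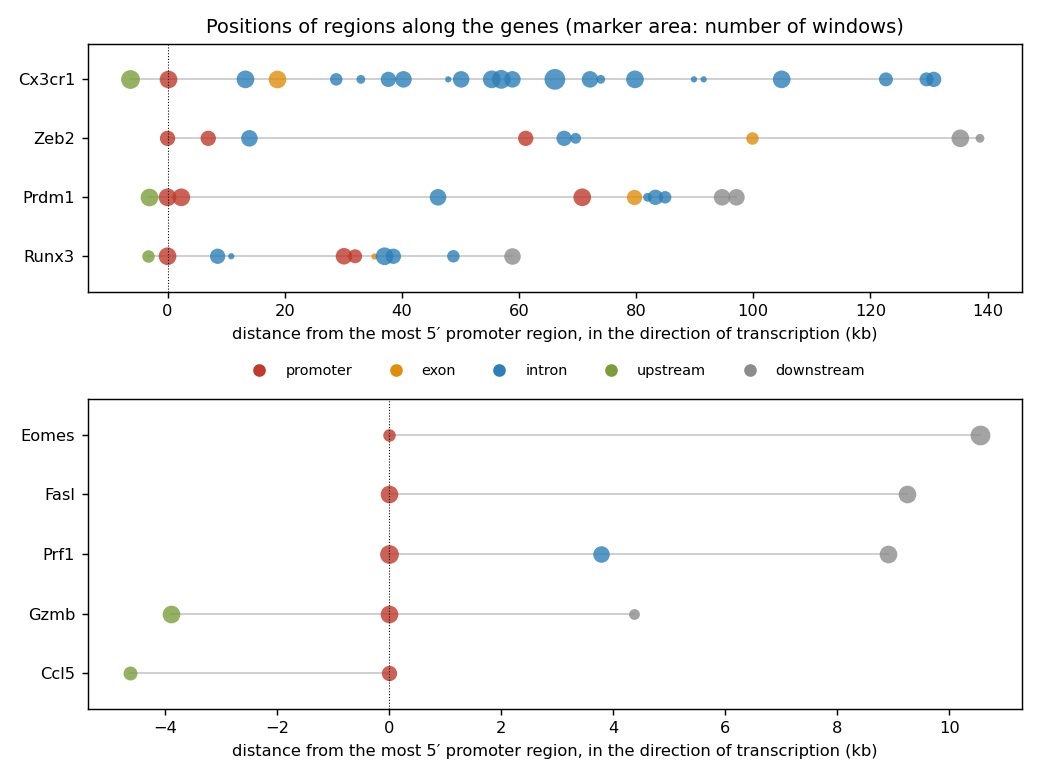
Regions of the 9 genes with a promoter region, placed by the distance of their midpoint from the midpoint of the most 5′ promoter region in kb (horizontal axis, positive in the direction of transcription), with colour for class and marker area for the number of windows; the 4 genes with the widest spread are in the upper panel. Prdm1, Runx3 and Zeb2 show promoter regions (red) at separate places, 70.8, 32.0 and 61.2 kb from the first at the farthest, and the 5 compact genes in the lower panel have 2 or 3 regions each.

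Eomes encodes a T-box factor related to T-bet that is prominent in CD8 memory and natural killer cells. It had 2 regions on chromosome 9. The promoter and exon region, 118308001 to 118308450, was 450 bp wide with 4 windows, the narrowest of the 15 promoter regions of the members. A larger one, 118318401 to 118319150, was 750 bp wide with 10 windows and lay 3201 bp beyond the 3′ end of Eomes, at the promoter of a gene on the opposite strand known only by an Ensembl ID. The Eomes promoter printed above held none of the capitalised motifs, like the printed Fasl and proximal Runx3 sequences.

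Gzmb encodes granzyme B, a serine protease that triggers apoptosis in target cells. Its promoter and exon region on chromosome 14, 56499501 to 56500150, was 650 bp wide with 8 windows and covered the implied 5′ end of the gene at 56499717. A second region of the same width and number of windows, 56503401 to 56504050, lay 3684 bp upstream. The third, 56495251 to 56495650, lay 645 bp beyond the 3′ end and was 400 bp wide with 3 windows. Of the other granzyme genes of this cluster, Gzmc and Gzmn had 1 region each, as had 37.4% of all named genes. Gzmd, Gzme, Gzmf and Gzmg had 0 within the 5000 bp that the table covers. Of protein-coding genes in RefSeq's table, 71.3% were named by a region. The promoters of these granzyme genes were not shown to be closed.

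Beyond Gzmb on its 5′ side lay a run of regions that the table gives to no gene. Of all regions, 18.8% name no gene. Of 13 regions between the Gzmb flanking region and the first region of Atp12a, an ATPase gene, 11 named no gene. They spanned 72.9 kb, from 56521701 to 56594550, with a median width of 600 bp and 3 to 9 windows each. Within 50 kb beyond its outermost regions on both sides, Gzmb had 12 further regions, 10 of them on its 5′ side, against a median of 5 over all genes (quartiles 3 and 8), and 91.3% of genes had fewer.

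The same count was 18 for Runx3, and 99.4% of all genes had fewer. Of these, 13 lay upstream of Runx3, from 134794001 to 134836500, and all 13 named no gene, against 18.8% of all regions. Fasl had 12 such neighbours, Cx3cr1 10, Prdm1, Prf1 and Eomes 7 each, Klrg1 6, and Zeb2 and Ccl5 4 each. Runx3, Gzmb and Fasl were thus above the upper quartile of all genes, as was Cx3cr1, while Zeb2, with many regions of its own, lay below the median in its surroundings. Counting 100 kb on either side gave 25 for Runx3, 16 for Gzmb, 22 for Fasl and 10 for Zeb2, against a median of 11. Within 50 kb on the 5′ side, all regions named no gene at Eomes (3), Prdm1 (2) and Zeb2 (1) too. The number was 4 of 5 at Fasl, 8 of 10 at Gzmb and 4 of 8 at Cx3cr1. Prf1 had 1 of 3 and Klrg1 0 of 5. The table does not tie these regions to the genes, and whether they act on them was not tested.

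Prf1 encodes perforin, which forms pores in the membrane of the target cell. Its promoter and exon region on chromosome 10, 61132801 to 61133650, was the widest of all 67 regions at 850 bp and held 9 of the 12 windows that fit this width, so that windows were missing within it. An intronic region, 61136701 to 61137300, had 600 bp and 7 windows. The third, 61141801 to 61142450, lay 1342 bp beyond the 3′ end with 650 bp and 8 windows. The Prf1 promoter printed above carries both CAGCTG and CAGGTG, 1 of each.

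Fasl encodes Fas ligand, which kills cells that carry Fas. Its 2 regions on chromosome 1 were alike in width (650 bp) and number of windows (8). One, 161615751 to 161616400, covered the promoter and an exon, and the other, 161606501 to 161607150, lay 1108 bp beyond the 3′ end.

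Ccl5 encodes a chemokine that attracts T cells and monocytes. The promoter and exon region on chromosome 11, 83421101 to 83421650, was 550 bp wide with 6 windows and covered the implied 5′ end at 83421344. The other, 83425751 to 83426250, lay 4407 bp upstream with 500 bp and 5 windows. Within 50 kb beyond these, all 4 further regions lay on the 5′ side and named no gene, as did 18.8% of all regions.

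Klrg1 encodes an inhibitory receptor for cadherins that marks short-lived effector cells. It had the fewest regions of the 10 genes. The one region, 122246051 to 122246350 on chromosome 6, was a single window of 300 bp that lay 1205 bp beyond the 3′ end of the gene. No region overlapped the gene or its promoter, which was also the case for 14.5% of all named genes (3867 genes). The nearest listed regions were 9750 bp away on the lower side, with 2 windows, and 22250 bp away on the higher side, with 8 windows. The table does not show the accessibility of sites that it leaves out, and no region in it is wider than 1100 bp. Whether wider open stretches were removed before was not tested, so the Klrg1 promoter was not shown to be closed.

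Cx3cr1 encodes the receptor for fractalkine. Its 23 regions on chromosome 9 made up 34.3% of the member regions and stretched over 138 kb. The promoter and exon region, 119897051 to 119897700, was 650 bp wide with 8 windows. An exonic region, 119878351 to 119879000, had the same size, and an upstream region, 119903401 to 119904100, lay 4456 bp from the gene with 700 bp and 9 windows. The other 20 regions were classed as intronic.

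Much of this count concerned ground shared with other genes. Of the 20 intronic regions of Cx3cr1, 11 lay at a promoter or exon of another gene, 8 of them at a promoter, and the other genes included Gorasp1, Ttc21a, Csrnp1 and Xirp1. The farthest, 119766301 to 119766850, was 131 kb along the listed gene, at the promoters of Gorasp1 and Ttc21a. The widest Cx3cr1 region, 119830851 to 119831650 with 11 windows, was at the promoter of a gene with an Ensembl ID alone. In all, 16 of the 23 regions named another gene, against 6 of the 44 regions of the other members and 52.6% of all pairs in the table. When regions that name another gene were left out, Cx3cr1 had 7 regions, as did Zeb2, against 11 for Prdm1 and 9 for Runx3.

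The member regions were similar in size to the rest. Their median width was 600 bp (quartiles 450 and 650), against 550 bp over all regions (quartiles 500 and 650). The median number of windows was 7, against 6. Regions of a single window made up 9.0% of the member regions (6 of 67), against 3.81% of all regions, and the width of 650 bp was found in 28.4%, against 15.4%. Promoter regions of the members had a median width of 650 bp (range 450 to 850), against 600 bp for promoter regions of all genes. The listed distance of flanking regions had a median of 3201 bp (range 645 to 4944), against 3248 bp over all genes.

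**Figure D3:**
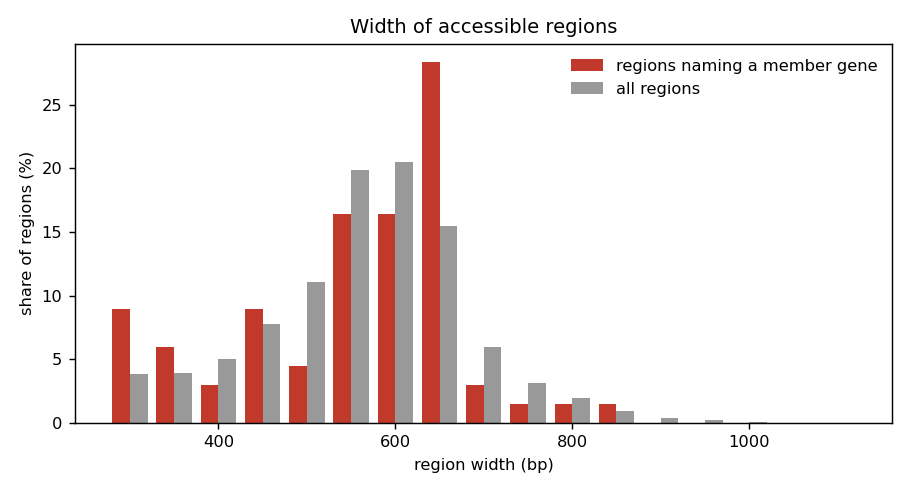
Share of regions in percent (vertical axis) by region width in bp, for the 67 regions naming a member gene (red) and all 65983 regions (grey). The red bars are highest at 650 bp and the grey bars at 600 bp; the red bars are higher at 300 bp (9.0% against 3.81%) and at 650 bp (28.4% against 15.4%).

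A further 69 genes in 4 lists, chosen around the effector programme but not all specific to effector cells, set these counts in context. Of them, 62 (89.9%) were named by a region, against 71.3% of 21900 protein-coding genes in RefSeq's table, matched by name. Their median was 3 regions, as for the members. Among granule and cytotoxic genes, 21 of 25 were named, and the highest counts were 11 for Rab27a (granule docking), 8 for Gzmk (granzyme K), 7 for Lyst (lysosome traffic) and 5 each for Tnf and Tnfsf10 (TNF and TRAIL). Gzmd, Gzme, Gzmf and Gzmg were at 0.

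In the list of transcription factors, 14 of 15 were named. It also held factors not specific to effector cells, such as Tcf7 with 6 regions, Bcl6 with 5, Klf2 with 3, and Zeb1. Runx1 had 27 regions and Runx2 21, both above the 11 of their paralogue Runx3, and Stat4, which carries the IL-12 signal, had 17. Batf, an AP-1 family factor, had 8 and Zeb1, the paralogue of Zeb2, had 7, against 9 for Zeb2. Zfp683, which encodes the Blimp-1 relative Hobit, was at 0, against 11 for Prdm1.

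All 22 genes of natural killer and effector surface receptors were named, led by Il12rb2 (IL-12 receptor) with 12, Slamf7 with 7, and Cd244a, Il18rap, Itgam and Itga4 with 6 each. In the list of 7 chemokines 5 were named. Ccl4 had 3 regions, Xcl1, Cxcl10 and Cx3cl1, the ligand of CX3CR1, had 2 each, as did Ccl5, and Ccl3 had 1, while Ccl6 and Ccl9 were at 0. These lists, like the members, were not corrected for gene length.

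**Figure D4:**
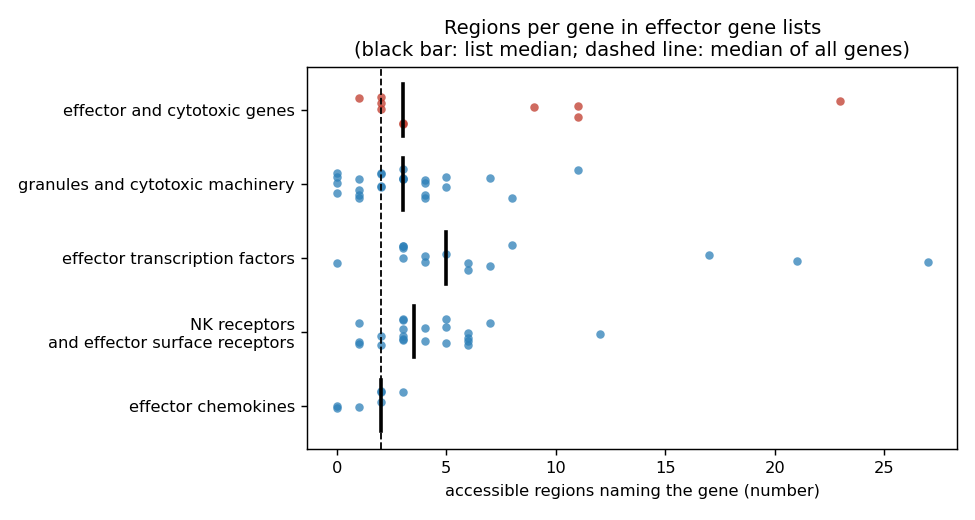
Number of regions per gene (horizontal axis) for the 10 effector and cytotoxic genes (red) and the 4 further lists (blue), 1 point a gene, spread vertically at random within a list; black bars are medians and the dashed line is the median of all genes (2). The medians are 3 for the 10 genes, 3 for granule and cytotoxic genes, 5 for transcription factors, 3.5 for receptors and 2 for chemokines.

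All 7 T cell markers (Cd3e, Cd3g, Cd3d, Cd4, Cd5, Cd28 and Lck) had a promoter region, against 75.9% of all named genes. So had 4 of the 5 Th1 markers, all but Tbx21. Promoter regions were not particular to these lists. Of the other markers named by a region, 3 of 3 myeloid, 3 of 3 erythroid and 2 of 2 natural killer markers had one. The same held for 3 of 4 B cell and 1 of 2 CD8 markers. All 5 Th1 markers were named by a region, against 71.3% of protein-coding genes in RefSeq's table. So were 4 of 5 B cell, 3 of 5 myeloid, 3 of 4 erythroid and 2 of 3 natural killer markers, Eomes among the last, and both CD8 markers, with 1 region for Cd8a and 2 for Cd8b1. There were 0 regions at Ms4a1, Csf1r, Lyz2, Hbb-bs and Ncr1. Being named by a region did not by itself mark a cell type, and a part of other cells in the member regions was not tested.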

How the data were processed

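Per the submitters' processing notes, the build was GRCm39 and the tools were BWA, edgeR, Picard and Trim Galore, with no versions, roles or order. The sources used here give neither the window filter nor the merging rule. The authors' deposited table gives, per the file headers, the width of each region in bp, its number of windows, a p-value, an adjusted p-value and the log2 fold change of a representative window in each of 6 contrasts. The p-values and representative windows as deposited were used to check their order along the rows and for nothing else. The log2 fold changes did not enter that check.

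Regions were taken from 1 contrast after the others were found to list the same ones. A gene's regions are those naming it in the overlap field or in either flank field. The class of a region is the one written for that gene; a code with a P was read as promoter. A flank distance added to a region's edge gave the end of a gene: in 75 of 75 genes with 2 or more upstream flanking regions all distances led to 1 position. Percentiles are over genes named by at least 1 region. The reading of the fields was checked on simulated data. Tables were computed with Python 3.11.15 and pandas 2.3.3, and figures with matplotlib 3.10.9.

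No test was run: the table has no value per sample, and regions and genes are not replicates. The members and lists were chosen with earlier results of these data known. Tcf7, Bcl6 and Klf2 were named outside the rule below, to show the make-up of their list. Named were the 10 genes, the list genes with 0 regions and the 5 with most regions in each list (ties included), and genes with a symbol that share an overlapping region with a member; of members with over 8 regions, the promoter, widest and farthest regions are described in full, and other regions named were chosen after their values were seen. RefSeq names and promoters are on GRCm38.p6 and were matched by symbol, or for names also by synonym and Ensembl ID. A search for E-boxes in the regions themselves, which was planned, needs a genome of the build of the regions and was not made.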

Additional observations from a re-analysis of the deposited data

How the results depend on the processing

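No paired analysis was possible because single samples have no column in the table; leaving out a replicate was not run for the same reason, and library depth is unknown. The 67 member regions became 52 with overlapping regions alone, 61 with at least 2 windows, 49 with at least 5, 58 with flanks within 2000 bp, 63 with regions within 1000 bp joined, and 45 with those naming no other gene, all within 1.5 times, and the rows of each other contrast gave 67. Flanking regions alone gave 15, and leaving out Cx3cr1, an alternative chosen after seeing the data, gave 44. The number of members above the median of all genes was 6, and 4 to 6 under the alternatives, 6 with RefSeq's protein-coding genes as the background. The promoter share of 22.4% was 24.4% to 31.8% with regions left out, and 35.8% when the class for any gene in the region was taken. The median width was 550 to 600 bp throughout, and the mean 552 bp. Single genes depend on these choices too: Runx3 had 7 regions in place of 11 with at least 5 windows, Cx3cr1 had 7 in place of 23 with regions naming no other gene, Klrg1 had 0 regions by overlap alone or with at least 2 windows, and Gzmb, Eomes, Ccl5 and Fasl had 1 each by overlap alone. Regions per 10 kb of gene could be had for 3 members. E-box shares of regions under other motifs or stretches were not run.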

Other observations

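Of the 62 list genes named by a region, 5 (8.06%) had no promoter region, against 24.1% of all named genes. These were Tbx21, Bhlhe40, Tnf, S1pr1 and Itga1, which were singled out after their values were seen. Tbx21 encodes T-bet, the factor that directs Th1 differentiation, and was named by 6 regions on chromosome 11: 3 in introns, 1 in an exon, 1 lying 3894 bp upstream of the gene, and 1 beyond its 3′ end. The upstream region, 97010051 to 97010650, had 7 windows. Tnf, on chromosome 17, had 5 regions, of which the upstream one lay 3018 bp from the gene, just past the 3000 bp that the table treats as promoter. Bhlhe40, a basic helix-loop-helix factor of cytokine-producing T cells, had an upstream region at 4340 bp, an exonic one and one beyond its 3′ end. Itga1, an integrin gene, had 5 regions, 4 of them in introns, and S1pr1, a receptor gene of lymphocyte exit, had 1 beyond its 3′ end. The widest region in the table was 1100 bp, whether wider open stretches were removed upstream was not tested, and none of these promoters was shown to be closed.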
